A study of Mus musculus with 10 samples.

Results

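A set of 5 genes for T-cell recruiting chemokines and a receptor was followed in neutrophils from grafted mouse squamous cell carcinomas: the chemokines Cxcl9, Cxcl10, Cxcl16 and Ccl5, and Cxcr3, the receptor for CXCL9 and CXCL10. They are the 5 symbols to which rows of the deposited count table map in GENCODE M21, out of 55385 mouse genes in the table, and all 5 passed the filter on low counts that left 29648 genes. Each symbol matched a single identifier. Cxcl9 and Cxcl10 encode chemokines that cells release when interferons reach them, above all interferon gamma. Both bind CXCR3 on activated T cells and NK cells and draw those cells into inflamed tissue and tumours. CXCL16 is made as a membrane-anchored chemokine that can be shed, and it binds CXCR6 on T cells. CCL5 binds receptors such as CCR1 and CCR3, and it is made by activated T and NK cells as well as by myeloid cells. Neutrophils and macrophages in tumours can make several of these chemokines, and their output is one route by which myeloid cells shape T-cell entry.

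Tumours were grown in CatchupIVM-red mice, in which a Tomato reporter tied to Ly6g, a neutrophil gene, marks neutrophils, and Tomato+ neutrophils were isolated for bulk RNA sequencing. The grafts were parental Sox2low squamous cell carcinoma cells (control) or Sox2Hi cells, which have high Sox2. SOX2 is a stem-cell transcription factor, and the design asks whether it lets tumour stem cells limit the interferon response of neutrophils. Mice were left untreated (naive) or received anti-PDL1 with a CD40 agonist (treated), an immunotherapy combination. Each naive group had 3 libraries (control naive, Sox2Hi naive) and each treated group 2 (control treated, Sox2Hi treated). All of them share the reporter host and the neutrophil isolation. The sample descriptions carry the tag C57 for all 10 libraries, GFP for the control graft and Sox2 for the Sox2Hi graft, and give no more on strain or vector. The age of the mice, the doses and the time of collection are not given in the sources used here. Nothing in the labels says that replicates came from separate animals, so p-values measure the spread between these libraries, which may be technical.

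Library totals ran from 13815734 to 22986193 counts. Ly6g itself was at 1.57 to 20.6 CPM. All 16 neutrophil markers on the list used here had reads in each library, with a summed level of 13109 to 17682 CPM in control naive, 55703 to 57130.4 in control treated, 15059 to 20279 in Sox2Hi naive and 22038 to 22406 in Sox2Hi treated. Olfactory and vomeronasal receptor genes, taken as silent, implied a background of 5.02% to 8.37% of counts in control naive, 1.58% to 1.74% in control treated, 3.63% to 3.92% in Sox2Hi naive and 4.04% to 4.96% in Sox2Hi treated. Levels below are CPM, the reads of a gene relative to the library total after that total is multiplied by a TMM scaling factor, which was 0.63 and 0.589 in control treated and between 0.93 and 1.4 elsewhere. Factors came from all genes tested (all-gene factors). Results under factors from the 11290 genes whose mean reached 5 CPM (expressed-gene factors) are given for the 5 genes where they alter a call or a direction or move a value by over 1.5 times, and for genes of the lists where they alter a call. The choice shifts all log2 fold changes of a comparison together. The median over all genes for treatment in control tumours was -0.30 with all-gene and -0.72 with expressed-gene factors, for treatment in Sox2Hi tumours 0.07 and 0.27, for graft in naive tumours -0.08 and -0.37, for graft in treated tumours 0.13 and 0.47, and for the interaction 0.22 and 0.85.

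Cxcl9 (ENSMUSG00000029417) and Cxcl10 (ENSMUSG00000034855) are neighbours on the minus strand of chromosome 5 in GRCm38, at 92321347 to 92328079 and 92346638 to 92348889, with 18558 bases between them. Cxcl11, the remaining CXCR3 ligand of this cluster, starts 10654 bases past Cxcl10. Cxcl16 (ENSMUSG00000018920) and Ccl5 (ENSMUSG00000035042) lie on the minus strand of chromosome 11, at 70453983 to 70459984 and 83525778 to 83530518. Cxcr3 (ENSMUSG00000050232) lies on the minus strand of chromosome X, at 101731535 to 101734269. All are protein-coding genes. Cxcl10 overlaps Art3 and Cxcl16 overlaps Zmynd15 on the opposite strand. Whether counting used strand is not given in the sources used here, so reads in these overlaps cannot be assigned with certainty. Art3 held 912 reads over the 10 libraries against 11389 for Cxcl10, and Zmynd15 held 786 against 21910 for Cxcl16.

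The promoters of Cxcl9 and Cxcl10 are printed because these 2 genes moved together across the libraries. They are the 250 bases before the gene start from RefSeq (GRCm38.p6), read 5′ to 3′ on the minus strand, with matches to 3 motifs in capitals, searched on both strands: the NF-kB motif (GGGA, any 4 bases, CC), the GAS motif (TTC, any 3 bases, GAA) and the ISRE motif (GAAA, any 2 bases, GAAA). The table gave promoters for 3 of the 5 genes: Cxcl9, Cxcl10 and Cxcr3. The Cxcl9 window is chr5:92328080-92328329 and the Cxcl10 window is chr5:92348890-92349139.
Cxcl9: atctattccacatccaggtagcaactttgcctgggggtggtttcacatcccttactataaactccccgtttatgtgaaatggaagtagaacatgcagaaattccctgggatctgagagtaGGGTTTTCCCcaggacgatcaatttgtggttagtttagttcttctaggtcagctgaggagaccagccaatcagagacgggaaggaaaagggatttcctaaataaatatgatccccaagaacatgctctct
Cxcl10: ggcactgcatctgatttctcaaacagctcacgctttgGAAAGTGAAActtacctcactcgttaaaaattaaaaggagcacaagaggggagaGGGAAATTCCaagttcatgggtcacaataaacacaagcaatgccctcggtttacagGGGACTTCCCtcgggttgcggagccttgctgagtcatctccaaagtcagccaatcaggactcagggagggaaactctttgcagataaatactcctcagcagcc
The Cxcl9 window held 1 NF-kB match, at -130 to -121 from the start. The Cxcl10 window held 2 NF-kB matches, at -159 to -150 and -103 to -94, and an ISRE match at -213 to -204. NF-kB letters occurred in 17.6% of 32851 promoter windows of the same 250 bases, ISRE letters in 2.98% and GAS letters in 7.02%. ISRE and GAS are the elements that interferon-activated factors bind, and NF-kB mediates signals such as those of TNF and CD40. None of these 3 motifs was found in the Cxcr3 window, chrX:101734148-101734397, which says only that these letters are not in those bases. The Cxcr3 gene as placed above begins at 101734269 on the minus strand, so part of this RefSeq window lies inside it.

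Per kb of exon, the scale on which levels of the 5 genes are compared with each other, Ccl5 had the highest mean level of the 5 over the 10 libraries, 162 CPM per kb, which placed it above 98.7% of the 29585 genes tested with a known length. Cxcl9 followed at 46.7 CPM per kb (96.1%), Cxcl16 at 43.3 (95.9%) and Cxcl10 at 33.6 (95.1%). Cxcr3 was the lowest at 4.55 CPM per kb (80.2%). The silent-gene background amounted to 6.72% of the Cxcr3 reads and between 0.22% and 1.07% of the reads of the 4 chemokines. In control naive libraries the order per kb was Ccl5 at 33.8 ± 4.68, Cxcl16 at 28.6 ± 2.2, Cxcl9 at 25.0 ± 6.2, Cxcl10 at 11 ± 1.53 and Cxcr3 at 4.55 ± 0.783 CPM per kb (SD, n = 3). In control treated libraries it was Ccl5 at 416 ± 202, Cxcl9 at 110.3 ± 30.6, Cxcl10 at 90.2 ± 16.7, Cxcl16 at 61.9 ± 6.83 and Cxcr3 at 3.62 ± 1.32 CPM per kb (SD, n = 2). Cxcl16 thus stood between Ccl5 and Cxcl9 in the naive group and below Cxcl10 in the treated one, although the naive gaps between Ccl5, Cxcl16 and Cxcl9 were about as large as the SDs. In Sox2Hi naive libraries Cxcl16, at 44.2 ± 3.26 CPM per kb, and Ccl5, at 42.6 ± 13.5, differed by less than their SDs and stood above Cxcl9 at 14.3 ± 2.1, Cxcl10 at 7.97 ± 1.97 and Cxcr3 at 6.45 ± 0.333 (SD, n = 3). In Sox2Hi treated libraries the means were 279 ± 198 for Ccl5, 64.2 ± 36.3 for Cxcl9, 49.3 ± 13.3 for Cxcl10, 45.3 ± 17.8 for Cxcl16 and 2.63 ± 0.523 CPM per kb for Cxcr3 (SD, n = 2). The gaps between Cxcl9, Cxcl10 and Cxcl16 were smaller than the SD of Cxcl9.

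**Figure D1:**
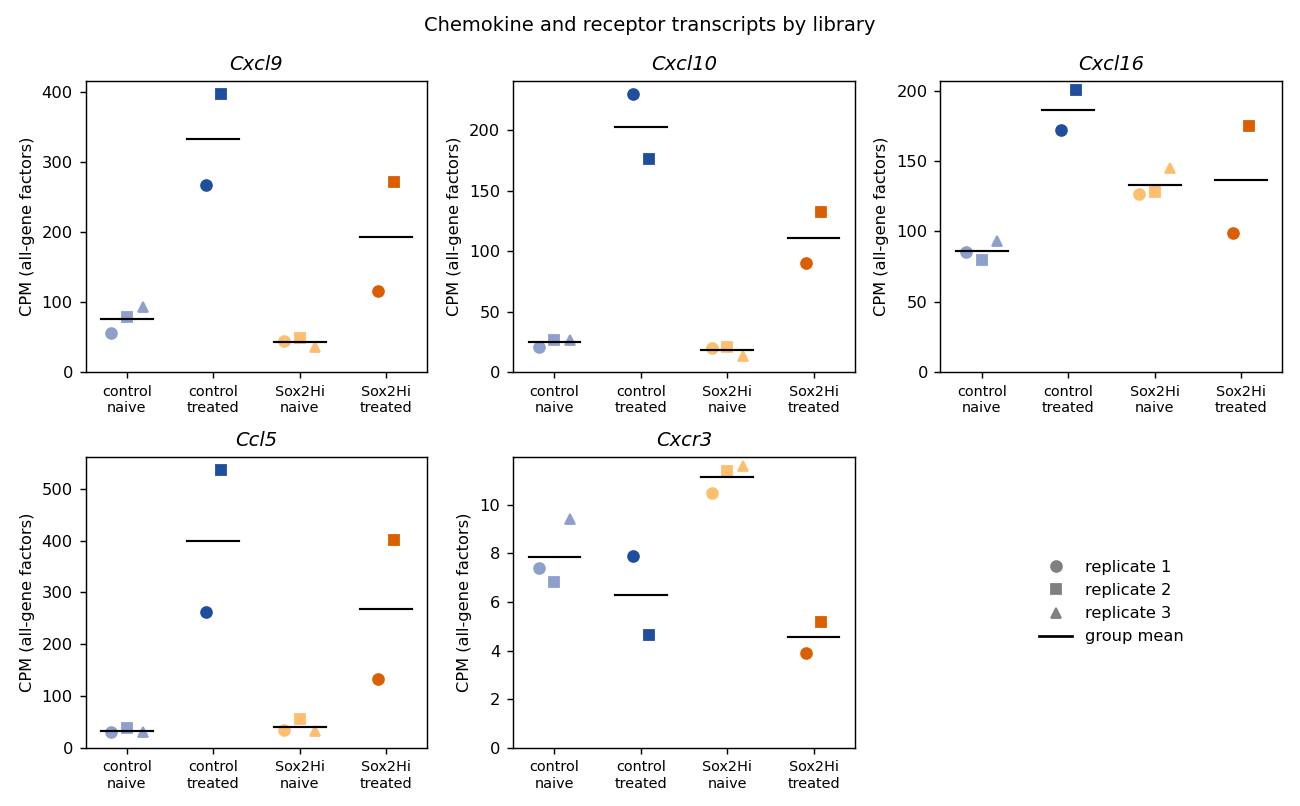
Level of each gene in each library, in CPM with all-gene factors on linear axes from 0, by graft and treatment. Each point is a library, its shape is the replicate number and the bar is the group mean. Cxcl9, Cxcl10 and Ccl5 were higher in all 4 treated libraries than in the 6 naive ones, while Cxcl16 and Cxcr3 were not.

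Treatment of control tumours raised all 4 chemokines in the neutrophil libraries and left Cxcr3 without a call. The rise was 12.3-fold for Ccl5, 8.17-fold for Cxcl10, 4.40-fold for Cxcl9 and 2.17-fold for Cxcl16. With library totals alone the log2 fold changes fell to 2.53 for Ccl5, 1.97 for Cxcl10 and 1.06 for Cxcl9, all still called, against 3.62, 3.03 and 2.14, while Cxcl16 had 0.05 (edgeR adjusted p = 0.81) and was not called. The 4 called genes of 5 stand against 34% of all genes called in this comparison, 18.7% of all genes being higher. In bulk libraries such as these, fewer cells of a type and less RNA per cell cannot be told apart.

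Cxcl9 was at 55.6, 78.4 and 92.6 CPM in the control naive libraries and at 267 and 398 CPM in the control treated ones. Every treated library was above every naive one, and the log2 fold change was 2.14 (SE 0.33, edgeR adjusted p = 0.00052). Cxcl10 was at 20.9, 26.8 and 26.9 CPM in control naive and at 229.8 and 176 CPM in control treated. The groups again did not overlap, and the log2 fold change of 3.03 (SE 0.25, edgeR adjusted p = 1.2e-05) held within 2.85 to 3.23 when each library was left out in turn. Ccl5 was at 29.9, 37.6 and 29.8 CPM in control naive and at 263 and 537 CPM in control treated. The treated pair differed from each other more than for Cxcl10, and the log2 fold change was 3.62 (SE 0.44, edgeR adjusted p = 9.3e-05).

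Cxcl16, the membrane-anchored ligand of CXCR6, moved less. It was at 85.7, 80.0 and 93.2 CPM in control naive and at 172 and 201 CPM in control treated, with no overlap. The log2 fold change was 1.11 (SE 0.22, edgeR adjusted p = 0.0027) and was 0.69 (SE 0.20, edgeR adjusted p = 0.015) with expressed-gene factors. It was 0.05 (edgeR adjusted p = 0.81) with library totals alone and 0.55 (edgeR adjusted p = 0.065) after subtraction of the silent-gene background, so the call of a rise in Cxcl16 rests on the scaling. The receptor Cxcr3 was at 7.39, 6.82 and 9.40 CPM in control naive and at 7.89 and 4.66 CPM in control treated, and the groups overlapped. Its log2 fold change was -0.33 (SE 0.25, edgeR adjusted p = 0.31) with all-gene factors and -0.73 (SE 0.25, edgeR adjusted p = 0.033) with expressed-gene factors, where 48.6% of all genes were called. It was also called lower among genes of at least 5 CPM only (-0.86), with library totals (-1.38) and after background subtraction (-0.85). Those settings called 33.1%, 68% and 15.6% of all their genes lower, and with library totals the median over all genes was -1.36. Without control treated replicate 2 the value for Cxcr3 was 0.03, on 131 to 192 naive reads and 94 in the treated library left.

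In Sox2Hi tumours, treatment raised Ccl5 by 6.53-fold, Cxcl10 by 6.18-fold and Cxcl9 by 4.49-fold and lowered Cxcr3, while Cxcl16 was not called. These 4 called genes of 5 stand against 3.61% of all genes, 1.79% being higher and 1.82% lower. With expressed-gene factors the same 4 were called, against 5.02% of all genes. Cxcl9 was at 43.8, 49.0 and 36.4 CPM in Sox2Hi naive and at 116 and 271 CPM in Sox2Hi treated (log2 fold change 2.17, SE 0.33, edgeR adjusted p = 0.0071). Cxcl10 was at 19.9, 21.1 and 12.9 CPM in Sox2Hi naive and at 89.9 and 132 CPM in Sox2Hi treated (2.63, SE 0.25, edgeR adjusted p = 0.0005). Ccl5 was at 34.7, 55.8 and 32.3 CPM in Sox2Hi naive and at 133 and 402 CPM in Sox2Hi treated (2.71, SE 0.42, edgeR adjusted p = 0.0085). For all 3 the treated libraries lay above the naive ones, and treated replicate 2 was the higher of its pair.

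That library carried part of the calls. Without Sox2Hi treated replicate 2, Cxcl9 had a log2 fold change of 1.42 (edgeR adjusted p = 0.12) and Ccl5 of 1.69 (edgeR adjusted p = 0.13), both short of the threshold, and without Sox2Hi naive replicate 3 the adjusted p of Ccl5 was 0.057. Cxcl10 kept its call whichever library was left out, with log2 fold changes of 2.31 to 2.88.

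Cxcr3 fell in Sox2Hi tumours. It was at 10.5, 11.4 and 11.6 CPM in Sox2Hi naive, on 208, 196 and 207 reads, and at 3.91 and 5.19 CPM in Sox2Hi treated, on 70 and 86 reads. The groups did not overlap, and the log2 fold change was -1.29 (SE 0.26, edgeR adjusted p = 0.024). The silent-gene background was 15% and 11.1% of its treated reads and 3.95% to 4.56% of its naive reads. After its subtraction the gene was still called, as it was under all 11 alternatives that left out no library of these groups. The call was lost without Sox2Hi treated replicate 1 (edgeR adjusted p = 0.14), treated replicate 2 (0.17), naive replicate 2 (0.057) or naive replicate 3 (0.097), with log2 fold changes of -1.52 to -1.09. Cxcl16 was at 127, 128 and 145 CPM in Sox2Hi naive and at 98.9 and 175 CPM in Sox2Hi treated, a pair that spanned the naive range. Its log2 fold change was 0.04 (SE 0.22, edgeR adjusted p = 0.95), with an interval of 2 standard errors from -0.41 to 0.48.

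**Figure D2:**
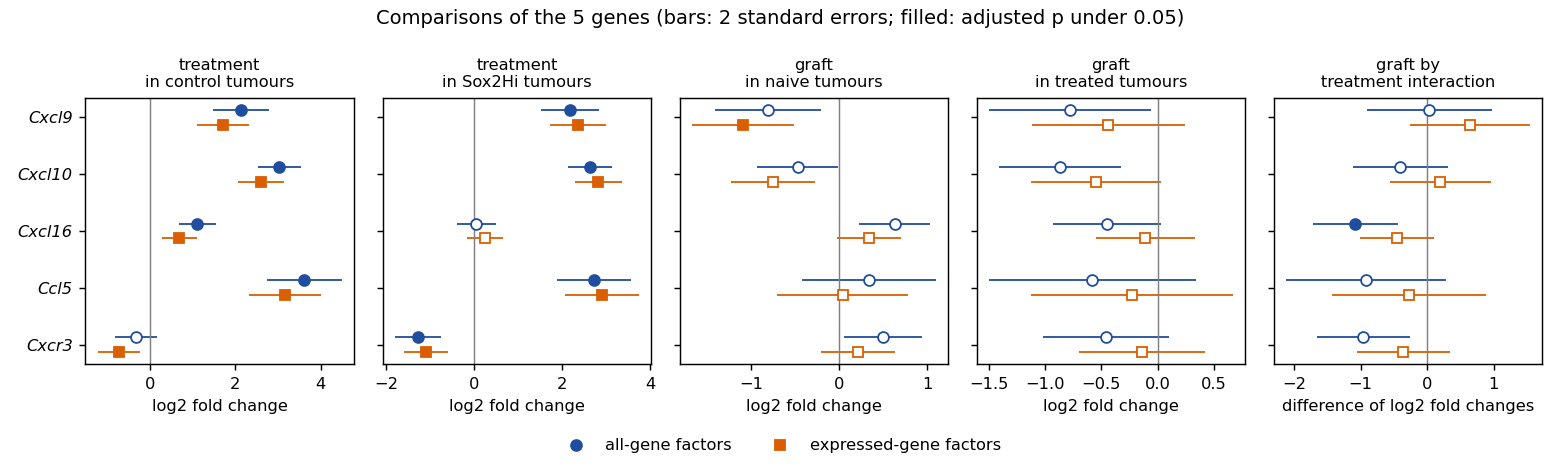
Log2 fold changes of the 5 genes in the 5 comparisons, with bars of 2 standard errors, under all-gene factors (circles) and expressed-gene factors (squares). Horizontal axes differ between panels, and filled symbols have an edgeR adjusted p under 0.05. Cxcl9, Cxcl10 and Ccl5 are filled in both treatment panels under both kinds of factor, and no gene is filled in the panel of graft in treated tumours.

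In naive tumours, no gene of the 5 differed between the grafts at an edgeR adjusted p under 0.05, against 1.87% of all genes. At an unadjusted p under 0.05 there were 3 (Cxcl9, Cxcl16 and Cxcr3), against 27.3% of all genes. DESeq2 called 2 (Cxcl9 and Cxcl16) and limma-voom 0, against 13.7% and 2.66% of all genes. The Sox2Hi libraries lay below all control libraries for Cxcl9, at 36.4 to 49.0 against 55.6 to 92.6 CPM, with a log2 difference of -0.81 (SE 0.30, edgeR adjusted p = 0.12). With expressed-gene factors this was -1.09 (SE 0.29, edgeR adjusted p = 0.047), a call, where 5.78% of all genes were called. Cxcl10 overlapped, at 12.9 to 21.1 against 20.9 to 26.9 CPM (-0.47, SE 0.23, edgeR adjusted p = 0.21), and had -0.75 (edgeR adjusted p = 0.074) with expressed-gene factors.

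Cxcl16 and Cxcr3 stood the other way, with every Sox2Hi naive library above every control naive library. Cxcl16 was at 127 to 145 against 80.0 to 93.2 CPM (log2 difference 0.63, SE 0.20, edgeR adjusted p = 0.09), and Cxcr3 at 10.5 to 11.6 against 6.82 to 9.40 CPM (0.50, SE 0.22, edgeR adjusted p = 0.16). Neither was called by edgeR, and with expressed-gene factors the differences were 0.34 and 0.22. Ccl5 overlapped, and its difference of 0.34 (SE 0.38, edgeR adjusted p = 0.58) has an interval of 2 standard errors from -0.43 to 1.10, and was 0.04 with expressed-gene factors. Title numbers pair the naive libraries by their correlated deviations, and within each of the 3 pairs the Sox2Hi library was the lower for Cxcl9 (-0.34, -0.68 and -1.35 on the log2 scale) and Cxcl10 (-0.07, -0.35 and -1.06) and the higher for Cxcl16, Cxcr3 and Ccl5 (for Ccl5 by 0.21, 0.57 and 0.12). For Cxcl9, Cxcl16 and Cxcr3 the groups did not overlap, so any pairing would have given these directions. With the title number as a block none of the 5 was called, the lowest edgeR adjusted p being 0.061, for Cxcl16.

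In treated tumours, the Sox2Hi mean was below the control mean for all 5 genes, and none was called by edgeR, against 13.7% of all genes (9.57% lower), or 12.9% with expressed-gene factors. At an unadjusted p under 0.05 there was 1 (Cxcl10), against 32.5% of all genes. DESeq2 called 2 (Cxcl9 and Cxcl10) and limma-voom 0, against 18.2% and 11.6% of all genes. Cxcl10 was at 89.9 and 132 CPM in Sox2Hi treated against 229.8 and 176 in control treated, with no overlap and a log2 difference of -0.87 (SE 0.27, edgeR adjusted p = 0.056). The difference was -0.55 (edgeR adjusted p = 0.19) with expressed-gene factors and -1.02 (edgeR adjusted p = 0.028) with RLE factors. It was also called without Sox2Hi naive replicate 3 (edgeR adjusted p = 0.045), a library outside this comparison that enters the shared estimate of spread.

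For the other 4 genes the treated groups overlapped. Cxcl9 had a log2 difference of -0.78 (SE 0.36, edgeR adjusted p = 0.16), which without Sox2Hi treated replicate 2 became -1.53 (edgeR adjusted p = 0.042). Ccl5 had -0.58 (SE 0.46, edgeR adjusted p = 0.4) and Cxcl16 -0.45 (SE 0.24, edgeR adjusted p = 0.22). Cxcr3 had -0.46 (SE 0.28, edgeR adjusted p = 0.27), on 63 to 94 reads in each treated library. With expressed-gene factors the differences were -0.44 for Cxcl9, -0.23 for Ccl5, -0.11 for Cxcl16 and -0.14 for Cxcr3. The intervals of 2 standard errors reached from -1.5 to 0.34 for Ccl5 and from -0.94 to 0.04 for Cxcl16, with 2 libraries a group.

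Whether the response to treatment differed between the grafts was tested directly by the graft by treatment interaction. Of the 5 genes, only Cxcl16 was called, against 27.5% of all genes, 16.2% being lower. Its response in Sox2Hi tumours minus that in control tumours was -1.08 on the log2 scale (SE 0.32, edgeR adjusted p = 0.028). The call depended on the scaling: the value was -0.45 (SE 0.28, edgeR adjusted p = 0.22) with expressed-gene factors, where 31.2% of all genes were called, -0.12 with library totals and -0.23 after background subtraction. It was also lost without control naive replicate 1 (edgeR adjusted p = 0.057), control treated replicate 2 (0.083), Sox2Hi naive replicate 3 (0.059) or Sox2Hi treated replicate 1 (0.078).

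The responses of the CXCR3 ligands were not shown to differ between grafts. The interaction was 0.03 for Cxcl9 (SE 0.47, edgeR adjusted p = 0.97) and -0.40 for Cxcl10 (SE 0.36, edgeR adjusted p = 0.4), and with expressed-gene factors the value for Cxcl9 was 0.65 (edgeR adjusted p = 0.26) and the sign for Cxcl10 turned, to 0.20. Their intervals of 2 standard errors, -0.91 to 0.97 and -1.11 to 0.31, include differences of about a log2 unit. Ccl5 had -0.92 (SE 0.60, edgeR adjusted p = 0.25) and -0.27 with expressed-gene factors. It reached -1.96 (edgeR adjusted p = 0.035) without Sox2Hi treated replicate 2. Cxcr3 had -0.96 (SE 0.35, edgeR adjusted p = 0.06) and -0.36 with expressed-gene factors. It was called with RLE factors (-1.18), by DESeq2 (-1.18, adjusted p = 0.018) and without control naive replicate 3 (-1.11) or control treated replicate 2 (-1.33).

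Ratios between genes within a library do not depend on the scaling factor. They were taken on reads to Cxcl10 and compared by a two-sided exact permutation test, in a family of 16 tests. With 3 against 2 libraries the smallest p is 0.2, with 3 against 3 it is 0.1 and with 2 against 2 it is 0.333, so no ratio could reach 0.05. The log2 ratio of Cxcl16 to Cxcl10 was 2.04, 1.57 and 1.79 in control naive against -0.42 and 0.19 in control treated, a shift of -1.91. In Sox2Hi it was 2.68, 2.60 and 3.49 in naive and 0.14 and 0.41 in treated libraries, a shift of -2.65. Both shifts had no overlap and the smallest exact p of 0.2 (adjusted 0.32). Cxcl16 reads thus went from well above Cxcl10 reads in every naive library to about level with them in every treated one, under any scaling, as reads not corrected for gene length.

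The ratio of Cxcl9 to Cxcl10 was lower in treated libraries. The log2 ratio was 1.41, 1.55 and 1.79 in control naive against 0.22 and 1.17 in control treated, a shift of -0.88 that ranged from -1.36 to -0.41 with a library left out. In Sox2Hi it was 1.14, 1.22 and 1.5 in naive against 0.37 and 1.04 in treated libraries, a shift of -0.58 (-0.92 to -0.25). Neither overlapped, each with the smallest exact p of 0.2 (adjusted 0.32). The ratio of Ccl5 to Cxcl10 overlapped between naive and treated libraries, with a shift of 0.51 in control (-0.19 to 1.22 with a library left out, exact permutation p = 0.6) and of -0.09 in Sox2Hi tumours (-0.61 to 0.43, exact permutation p = 1), so its direction was not resolved.

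In Sox2Hi naive libraries the log2 ratio to Cxcl10 was higher by 1.12 for Cxcl16, by 1.01 for Cxcr3 and by 0.79 for Ccl5, each without overlap and with the smallest exact permutation p of 0.1 (adjusted 0.32). For Ccl5 the ratios were 0.81, 1.40 and 1.33 against 0.52, 0.49 and 0.15 in control naive. For Cxcl9 the ratio was 1.14, 1.22 and 1.5 against 1.41, 1.55 and 1.79, which overlapped as groups (-0.30, exact permutation p = 0.2), while within the pairs of the same title number it was lower by a like amount, -0.27, -0.33 and -0.29. In treated tumours the ratios of Cxcl9, Cxcl16 and Ccl5 overlapped between grafts, with differences of 0.01, 0.38 and 0.19. That of Cxcr3 did not, at -4.52 and -4.67 against -4.86 and -5.24 (0.46, smallest exact permutation p of 0.333).

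**Figure D3:**
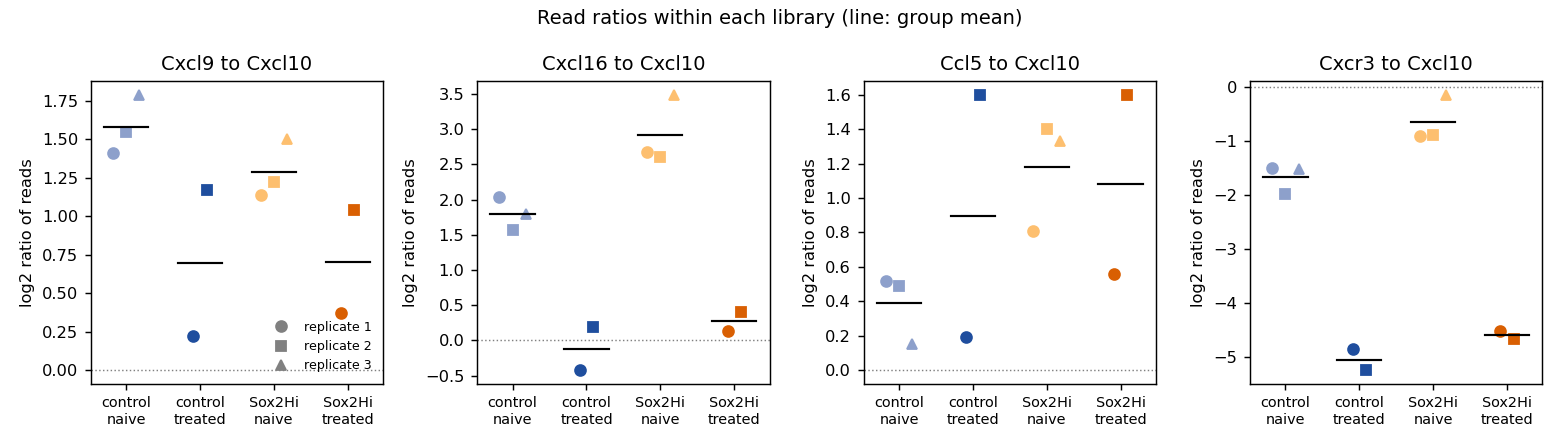
Log2 ratio of the reads of each gene to those of Cxcl10 in each library (dotted line: equal reads, not corrected for gene length), by graft and treatment, with bars at group means. Vertical axes differ between panels. The ratio of Cxcl16 to Cxcl10 lies between 1.57 and 3.49 in naive and between -0.42 and 0.41 in treated libraries, and that of Ccl5 overlaps between naive and treated.

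Of the receptors and partners of these chemokines, a list of 11 genes all tested, treatment of control tumours raised 5 (Cxcl11, Cxcr6, Ccr1, Adam10 and Adam17) and lowered 1, the scavenger receptor gene Ackr2, against 18.7% of all genes higher and 15.3% lower. The median log2 fold change was 0.36 beside -0.30 over all genes. The silent-gene background amounted to 103% of the Ackr2 reads in control naive (22 to 23 reads in each library) and to 166% in control treated (3 and 7 reads), so its level was not resolved from background. Cxcl11, the third interferon-induced CXCR3 ligand, was at 10.7 to 11.2 CPM in control treated and 2.13 to 2.89 in control naive (log2 fold change 2.19, SE 0.23, edgeR adjusted p = 4.1e-05), where background was 7.23% and 59.7% of its reads, and it also rose in Sox2Hi tumours (1.76, SE 0.23, edgeR adjusted p = 0.0031). Cxcr6, the receptor of CXCL16, was at 8.27 to 12.3 CPM in control naive and at 31.8 and 95.1 in control treated (2.64, SE 0.51, edgeR adjusted p = 0.0023). Ccr1, a CCL5 receptor of neutrophils and monocytes and the gene of this list with the highest mean CPM, was at 1849 to 2416 CPM in control naive and at 6824 and 7837 in control treated (1.74, SE 0.20, edgeR adjusted p = 5.8e-05). Among the sheddases that can release CXCL16, Adam17 rose by 1.98 (SE 0.19, edgeR adjusted p = 1.9e-05) and Adam10 by 0.63 (SE 0.16, edgeR adjusted p = 0.012), the latter without a call under expressed-gene factors (0.21, edgeR adjusted p = 0.21). Sdc4, a heparan sulfate proteoglycan, had a log2 fold change of -0.23 (edgeR adjusted p = 0.49) and was called lower with expressed-gene factors (-0.62, SE 0.21, edgeR adjusted p = 0.028).

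In Sox2Hi tumours, 1 of the 11 rose (Cxcl11) and 1 fell, Ccr3, a CCL5 receptor (-2.30, SE 0.36, edgeR adjusted p = 0.0085), against 1.79% of all genes higher and 1.82% lower. The median was -0.15 beside 0.07 over all genes. Expressed-gene factors added Adam17 and Cxcr6 to the genes that rose, where 3.36% of all genes were higher. In naive tumours edgeR called 0 of the 11 between grafts, against 1.87% of all genes. At an unadjusted p under 0.05, 5 were higher in Sox2Hi, against 15.1% of all genes. DESeq2 called 4 and limma-voom 1, all higher in Sox2Hi, against 12.3% and 2.34% of all genes. In treated tumours 3 were lower in Sox2Hi (Ccr1, Ccr3 and Adam17), against 9.57% of all genes. With expressed-gene factors it was 1, Ccr1, against 3.27%. By the interaction 4 had a lower log2 fold change with treatment in Sox2Hi than in control tumours (Ccr1 -1.5, Ccr3 -2.44, Adam10 -1.0 and Adam17 -1.42), against 16.2% of all genes. For Ccr3, and no other of the 4, this was a called fall in Sox2Hi, beside 0.13 (edgeR adjusted p = 0.77) in control tumours. With expressed-gene factors the interactions of Ccr3 and Adam17 were still called, Ccr1 was at -0.87 (edgeR adjusted p = 0.052) and Adam10 at -0.38, against 4.43% of all genes lower. Ackr2, at background, was called the other way (1.96, edgeR adjusted p = 0.033), against 26.8% of all genes higher.

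The inducing pathway list held 22 genes from the interferon and TNF ligands and receptors through JAK, STAT and IRF factors to NF-kB, of which 21 were tested. Treatment of control tumours raised 19 of the 21 and lowered none, against 18.7% of all genes higher, with a median log2 fold change of 1.56 beside -0.30 over all genes. With expressed-gene factors 18 were higher, against 12.5% of all genes. None was lower at an unadjusted p under 0.05 by edgeR, and DESeq2 and limma-voom called 0 lower, against 24.7%, 4.55% and 9.86% of all genes. Ifngr1, a chain of the interferon gamma receptor, rose by 1.74 (SE 0.22), the kinase gene Jak1 by 1.37 (SE 0.16) and Nfkbia, the NF-kB inhibitor that NF-kB itself induces, by 1.83 (SE 0.21), with edgeR adjusted p-values of 0.00012, 8.4e-05 and 5.8e-05. Jak2, the gene of a kinase at the same receptor, was at 86.9 to 111 CPM in control naive and at 260.4 and 318 in control treated (1.5, SE 0.18, edgeR adjusted p = 9.4e-05), with no overlap of the groups.

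In Sox2Hi tumours, the same treatment raised 3 of the 21 (Ifng, Irf1 and Irf7), against 1.79% of all genes, with a median of 0.32 beside 0.07, and lowered none. Expressed-gene factors added Stat2 (1.09, SE 0.23, edgeR adjusted p = 0.02), where 3.36% of all genes were higher. At an unadjusted p under 0.05, 1 was lower, and DESeq2 and limma-voom called 0 lower, against 12.3%, 7.6% and 2.11% of all genes. Irf1, a factor induced by interferon gamma, rose by 1.24 (SE 0.24, edgeR adjusted p = 0.022). Irf7, a factor of the type I interferon response, rose by 1.07 (SE 0.25, edgeR adjusted p = 0.045). Ifng, whose product induces Cxcl9 and Cxcl10, had 5 to 15 reads in each naive library. That was 108% background in control naive and 70.7% in Sox2Hi naive, so its naive level was not resolved from background and its fold changes have no firm base. It had 23 and 221 reads in the control treated libraries (4.32, SE 0.72, edgeR adjusted p = 0.00089) and 63 and 83 in the Sox2Hi treated ones (3.08, SE 0.74, edgeR adjusted p = 0.045). The response differed between grafts by the interaction for 16 of the 21 with all-gene factors, each with a lower log2 fold change in Sox2Hi than in control tumours, against 16.2% of all genes. With expressed-gene factors it differed for 5 (Ifnar1, Jak1, Jak2, Nfkbia and Tnf), also lower, against 4.43% of all genes. Irf1 (-0.86, edgeR adjusted p = 0.076) and Ifng (-1.24, edgeR adjusted p = 0.4) were not among the 16.

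Between the grafts, 2 pathway genes were higher in Sox2Hi naive tumours, Ifnar1 and Jak1, against 1.66% of all genes, with none under expressed-gene factors, while DESeq2 called 12, against 12.3% of all genes. In treated tumours 10 were lower in Sox2Hi with all-gene factors, against 9.57% of all genes, and 3 (Jak2, Nfkbia and Tnf) with expressed-gene factors, against 3.27%. Tnf, a product that activates NF-kB, was at 230.5 and 267 CPM in control treated and at 58.7 and 69.8 in Sox2Hi treated, with an interaction of -2.58 (SE 0.37, edgeR adjusted p = 0.0046). The CXCR3 ligands in the same libraries had no called interaction.

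**Figure D4:**
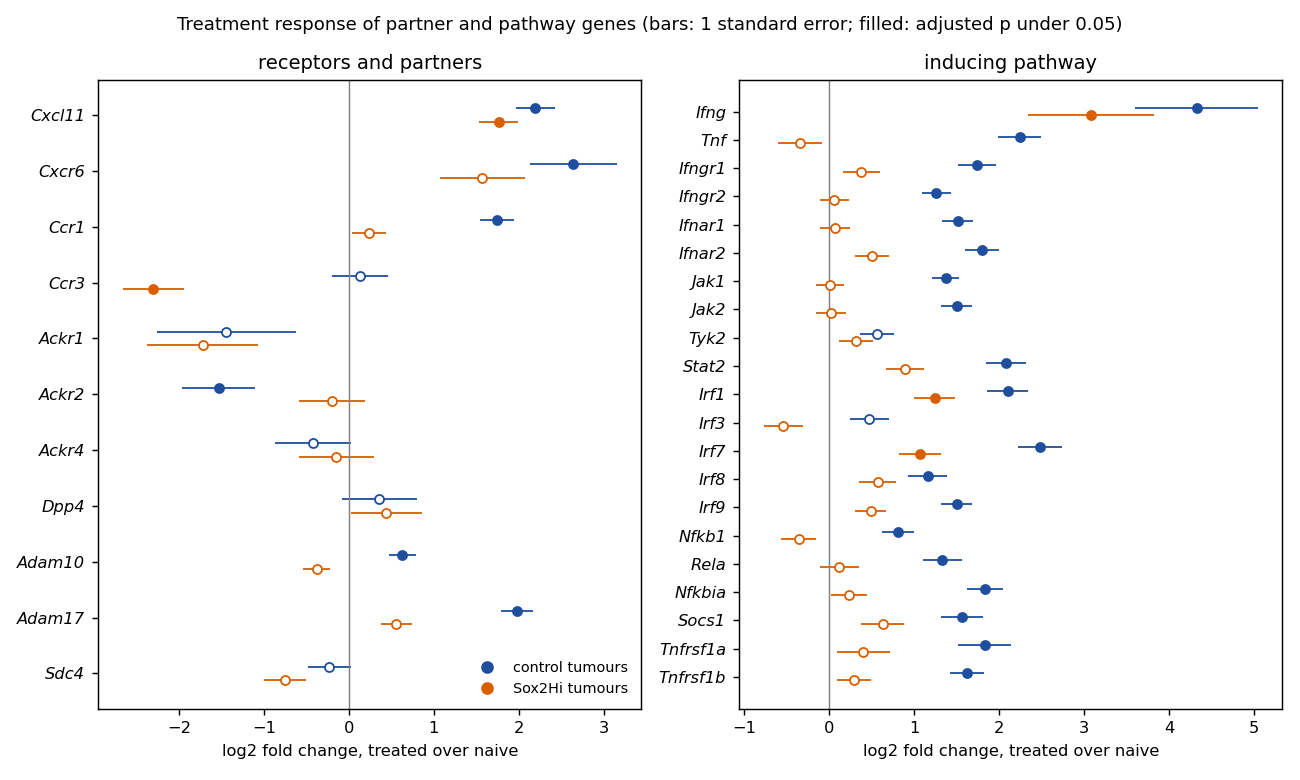
Log2 fold change with treatment, treated over naive, for 11 receptors and partners and 21 inducing pathway genes, in control (blue) and Sox2Hi (orange) tumours, with bars of 1 standard error and filled points at an edgeR adjusted p under 0.05, all-gene factors. In control tumours 19 of the 21 pathway genes are filled, and in Sox2Hi tumours Ifng, Irf1 and Irf7 are.

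Transcripts of T and NK cells were read in every library. With all-gene factors their summed level overlapped between naive and treated libraries in Sox2Hi but not in control tumours. With expressed-gene factors it overlapped in neither, at 81.2 to 302 CPM in Sox2Hi naive and 329.7 to 465 in Sox2Hi treated. All 20 T and NK cell markers had reads in each library, none of them at or below the silent-gene background in every library of a group, though background made up 124% of the reads of Ncr1, an NK cell receptor gene, and 58.9% of those of Cd4 in control naive. Their summed level was 96.2, 132 and 114 CPM in control naive, 299 and 1002 in control treated, 83.6, 319 and 116 in Sox2Hi naive, and 429 CPM in replicate 1 with 309.7 in replicate 2 of Sox2Hi treated. The highest of them by mean CPM, which is not corrected for gene length, were Nkg7, a granule gene of cytotoxic lymphocytes, and the lymphocyte surface genes Ms4a4b and Cd2. Treatment raised 13 of the 20 in control tumours, against 18.7% of all genes, and 3 in Sox2Hi tumours (Gzma, Nkg7 and Prf1), against 1.79%. Background was 65.7% of the Prf1 reads in Sox2Hi naive. DESeq2 and limma-voom called only Gzma and Nkg7 in Sox2Hi tumours, against 3.24% and 1.79% of all genes higher. With expressed-gene factors 9 were higher and 1, Cd4, was lower in control tumours, where 12.5% of all genes were higher and 36.1% lower. Their part in the results for Ccl5, Cxcr3 and Ifng was not tested. Control treated replicate 2 had both the highest marker sum and the highest Ccl5, but in Sox2Hi treated the library with more Ccl5 (402 CPM) had the lower sum (309.7), and Sox2Hi naive replicate 2 had a sum of 319 with Ccl5 at 55.8 CPM. The log2 ratio of Ccl5 to this sum was -0.19 and -0.90 in control treated against -1.94 to -1.69 in control naive, without overlap. It was -1.69 and 0.37 in Sox2Hi treated against -1.27, -2.52 and -1.85 in Sox2Hi naive, which overlapped.

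Cxcr3, itself a gene of activated T and NK cells, did not follow the sum of their markers. Single markers did not all follow that sum either, as treatment raised 13 of the 20 in control and 3 in Sox2Hi tumours. The log2 ratio of Cxcr3 to the sum was -3.71, -4.28 and -3.60 in control naive against -5.25 and -7.75 in control treated, a shift of -2.64. In Sox2Hi it was -3.00, -4.81 and -3.33 in naive and -6.78 and -5.90 in treated libraries, a shift of -2.63, and neither pair of groups overlapped.

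**Figure D5:**
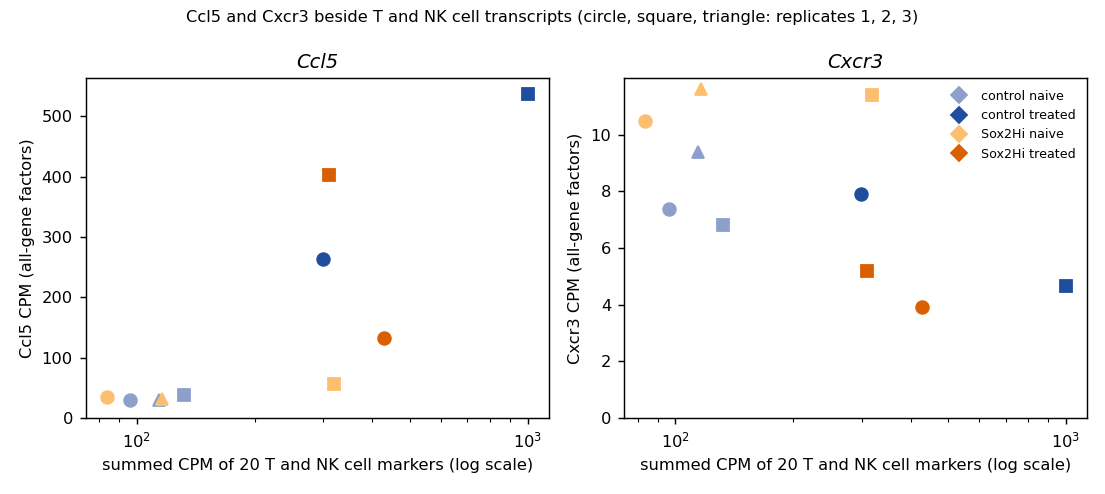
Ccl5 (left) and Cxcr3 (right) in CPM with all-gene factors, on linear axes from 0, against the summed CPM of 20 T and NK cell markers on a log axis, with a point per library. Libraries with the most Ccl5 have sums of 299 to 1002 CPM, while Sox2Hi naive replicate 2, at a sum of 319, has 55.8 CPM of Ccl5. Cxcr3 is lowest, at 3.91 to 5.19 CPM, in 3 of the 4 treated libraries.

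Macrophage markers also differed between groups. The 14 genes, with the highest mean CPM for Apoe, Cd68 and Ly6c2, summed to 885 to 1115 CPM in control naive, 2315 to 2976 in control treated, 1435 to 1947 in Sox2Hi naive and 1119.9 to 2139.7 in Sox2Hi treated. Treatment raised 8 of the 14 in control tumours and 1, Ly6c2, in Sox2Hi tumours, against 18.7% and 1.79% of all genes. With expressed-gene factors 5 were higher and 1, Mertk, was lower in control tumours, against 12.5% of all genes higher and 36.1% lower, and 2, Fcgr1 and Ly6c2, were higher in Sox2Hi tumours, against 3.36%. In Sox2Hi treated, replicate 2 had the higher macrophage sum and the higher level of all 5 members, and its part in those values was not tested. Relative to this sum, Cxcl10 was higher with treatment by 1.66 in control and 2.72 in Sox2Hi tumours on the log2 scale, both without overlap. Cxcl9 shifted by 0.78 in control, with overlap, and by 2.13 in Sox2Hi tumours, without. Cxcl16 shifted by -0.25 and 0.06 relative to the sum, and its libraries overlapped. Dendritic cell markers (12 genes, Itgax, Cd209a and Ccr7 highest in mean CPM) summed to 60.0 to 84.1 CPM in control naive, 59.7 to 72.5 in control treated, 76.9 to 122 in Sox2Hi naive and 48.3 to 50 in Sox2Hi treated. In control tumours treatment raised 3 of them (Batf3, Clec9a and Xcr1) and lowered 3 (Ccl17, Cd209a and Fscn1), against 18.7% of all genes higher and 15.3% lower. With expressed-gene factors it raised none and lowered 4 (Flt3 added), against 36.1% of all genes lower. In Sox2Hi tumours it lowered 2, Ccl17 and Cd209a, against 1.82% of all genes. Keratinocyte markers (12 genes, Sfn, Krt14 and Krt5 highest) summed to between 901 and 2981 CPM over the 10 libraries. With treatment edgeR called 0 of the 12 in either graft, against 34% of all genes in control and 3.61% in Sox2Hi tumours. At an unadjusted p under 0.05, 0 were lower in control and 2 in Sox2Hi tumours, against 24.7% and 12.3% of all genes. In Sox2Hi tumours DESeq2 called Epcam lower and limma-voom called 0, against 7.6% and 2.11% of all genes lower. With expressed-gene factors edgeR called 4 of the 12 lower in control tumours (Cdh1, Epcam, Krt5 and Trp63), which is no larger a share than the 36.1% of all genes, and Epcam in Sox2Hi tumours, against 1.66% of all genes. Fibroblast and endothelial markers (10 genes, Col3a1, Col1a1 and Dcn highest) summed to 239 to 756 CPM in control naive, 137 to 156 in control treated, 534 to 787 in Sox2Hi naive and 121 to 314 in Sox2Hi treated, so that treated libraries lay below naive ones in both grafts. Treatment lowered 4 of the 10 in control tumours (Col1a1, Col1a2, Col3a1 and Lum), against 15.3% of all genes, or 8 with expressed-gene factors, against 36.1%. In Sox2Hi tumours edgeR called 0, with 4 lower at an unadjusted p under 0.05, while DESeq2 and limma-voom each called the same 4 genes lower, against 12.3%, 7.6% and 2.11% of all genes. Their part in the treatment results was not tested. No marker of these lists was at 0 in a library.

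Of the 16 neutrophil markers, Il1r2, S100a8 and S100a9 had the highest mean CPM. Il1r2 weighed most in their sum, with 166978 to 217120 reads in control naive against 22381 to 31381 for S100a8. Relative to this sum, Cxcl10 was higher with treatment by 1.17 in control and by 2.31 in Sox2Hi tumours on the log2 scale, without overlap. Cxcl9 shifted by 0.29 in control, with overlap, and by 1.73 in Sox2Hi tumours, without. Cxcl16 went the other way, by -0.74 in control, without overlap, and by -0.35 in Sox2Hi tumours, with overlap. The neutrophil marker sum itself went with treatment from at most 17682 to at least 55703 CPM in control tumours and from at most 20279 to at least 22038 CPM in Sox2Hi tumours. As CPM, Cxcl10 shifted by 3.03 in control and 2.63 in Sox2Hi tumours with all-gene factors and by 2.61 and 2.82 with expressed-gene factors, and these responses were not shown to differ. Treatment raised all 16 markers in control and 7 in Sox2Hi tumours, against 18.7% and 1.79% of all genes. With expressed-gene factors 8 were higher in Sox2Hi tumours (G0s2 added), against 3.36%. The median log2 fold change of the 16 with all-gene factors was 2.26 in control and 0.90 in Sox2Hi tumours, beside 2.14 and 2.17 for Cxcl9.

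Genes whose log2(CPM + 1) profile was most like each member were sought among 7096 genes of at least 10 CPM, over the 10 libraries. The libraries share treatment and group, so the measure describes likeness over these libraries only. Cxcl10 was closest to Calhm6 (Pearson r 0.992), Gbp9, an interferon-induced GTPase gene (0.990), and Olfr56 (0.990). Cxcl9 was closest to Olfr56 (0.974), Ppp2r5a (0.970) and the interferon-inducible Ifi205 (0.969), so that Olfr56 was shared by both CXCR3 ligands. The annotated Olfr56 gene spans the interferon-inducible Ifi47 on the same strand, and Gbp9 overlaps Gbp4 and Gbp8 on its own strand, so the reads of these genes cannot be told apart with certainty. Ccl5 was closest to Tnip3 (0.990), whose product restrains NF-kB signalling, Slc16a10 and Atad2b (both 0.981). Cxcl16 was closest to Mkrn1 (0.973), Gpd2 (0.968) and Scpep1 (0.966). Cxcr3 was closest to Bub1, a mitotic checkpoint kinase gene (0.955), Ahcy (0.955) and Tsen15 (0.949). Among the members, r was 0.96 between Cxcl9 and Cxcl10, 0.94 between Cxcl10 and Ccl5, 0.60 between Cxcl10 and Cxcl16 and -0.71 between Cxcl10 and Cxcr3, over 4 groups that treatment separates.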

How the data were processed

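Bulk RNA-seq of 10 neutrophil libraries was analysed from 1 deposited table of estimated counts per gene, whole numbers as deposited by the authors. Per the submitters' processing notes, kallisto 0.44.0 and mm10 were used. Strandedness is not given in the sources used here. The 96 rows that are not mouse genes (0.000992% to 0.00277% of counts) were left out. Symbols came from GENCODE M21 (55144 of 55385 identifiers matched).

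The groups followed the labels. All 10 libraries entered one edgeR 4.0.16 quasi-likelihood model (R 4.3.3; filterByExpr, TMM factors; glmQLFTest), Benjamini-Hochberg adjusted over 29648 genes, and calls were made at an adjusted p under 0.05. The common biological coefficient of variation was 0.232. Alternatives included DESeq2 1.42.0, limma-voom (limma 3.58.1), other factors and filters, background subtraction (silent-gene reads per kb from 1464 receptor genes), replicate blocks and leaving out each library. The scripts were tested on simulated data.

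Depth was 13815734 to 22986193 counts. No 2 replicates agreed within sampling noise (smallest chi-square per degree of freedom 12.5). Deviations of same-numbered naive libraries correlated at 0.215, 0.258 and 0.33, so the title numbers pair the naive libraries, a pairing that rests on this check alone, as the meaning of the numbers is not in the labels. Members, lists and tests were chosen with earlier results of these data known. Of the receptor and pathway lists, 2 genes are not reported here and were left out of the counts and medians. The text names the 5 members, list genes in counts of 5 or fewer or else the 4 with the highest mean CPM in a list, 3 per marker list, and the 3 closest by likeness.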

Additional observations from a re-analysis of the deposited data

Results flagged for a closer look

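The test of the graft by treatment interaction with all-gene factors called 22 of the members and list genes named here, so their treatment responses differed between the grafts under these factors. Several are named because this or a related test called them, so their number is no result. All 22 values were negative, that is, the log2 fold change with treatment was lower in Sox2Hi than in control tumours. For Ccr3 this was a called fall in Sox2Hi tumours (-2.30) beside 0.13 in control tumours. For the others no fall was called there, and a negative value does not by itself tell a smaller rise from a fall. Among the members it was Cxcl16 (-1.08). Among the receptors and partners they were the CCL5 receptors Ccr1 (-1.5) and Ccr3 (-2.44) and the sheddases Adam10 (-1.0) and Adam17 (-1.42). Among the inducing pathway they were Nfkbia (-1.60), Ifngr1 (-1.36), Jak1 (-1.36), Jak2 (-1.48), Ifnar1 (-1.45), Irf7 (-1.41), Stat2 (-1.19) and Tnf (-2.58). Among the markers they were the neutrophil genes Il1r2 (-1.22), S100a8 (-1.69), S100a9 (-1.82) and Ly6g (-1.66), the macrophage list genes Cd68 (-1.72) and Ly6c2 (-1.9), and Itgax (-0.88), Batf3 (-1.24) and Clec9a (-1.39) of the dendritic cell list. With expressed-gene factors, 10 of the 22 were called, and Cxcl16, Ccr1, Adam10, Ifngr1, Irf7, Stat2, Il1r2, S100a8, Ly6g, Itgax, Batf3 and Clec9a were not. No group has the 4 libraries needed to test for a library that stands apart.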

How the results depend on the processing

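Of 770 values of the 5 genes under alternatives, 651 kept their direction and side of the threshold, 34 lost a call, 32 gained one and 53 changed sign; the cause was not tested. The number of members called was 4 for treatment in control tumours (4 to 5 under other settings, 4 with a library left out, 3 to 5 with a library left out and expressed-gene factors, a combination chosen after seeing the data), and with library totals or background subtraction Cxcr3 took the place of Cxcl16 among the 4. It was 4 for treatment in Sox2Hi tumours (4; 1 to 4; 3 to 4). For graft in naive tumours it was 0 (1 with expressed-gene factors, 2 with genes of at least 5 CPM only or DESeq2; 0; 0 to 2). For graft in treated tumours it was 0 (1 with RLE factors or all genes with a count, 2 with DESeq2; 0 to 1; 0). For the interaction it was 1 (0 with expressed-gene factors, genes of at least 5 CPM only, library totals or background subtraction, 2 with RLE factors or DESeq2; 0 to 2; 0 to 1). Leaving out a treated library leaves 1 in its group, assumed to vary like the other groups.

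Sign changes concerned values that were called neither as reported nor with the sign changed. Cxcr3, treatment in control tumours, ranged from -0.74 to 0.03 with a library left out. Cxcl16, treatment in Sox2Hi tumours, was -0.07 with library totals, -0.02 with limma-voom, -0.06 with all genes with a count and -0.04 under the replicate block by description number, and ranged from -0.45 to 0.40 (-0.22 to 0.59 with expressed-gene factors) with a library left out. Ccl5, graft in naive tumours, was -0.05 with genes of at least 5 CPM only and -0.07 after background subtraction (-0.34 to 0.24 with a library left out and expressed-gene factors, -0.17 without control naive replicate 3). For graft in treated tumours, library totals gave 0.27 for Cxcl16, 0.12 for Ccl5 and 0.26 for Cxcr3, and background subtraction gave 0.01 for Cxcl16. With a library left out Ccl5 ranged from -1.60 to 0.01, and with expressed-gene factors as well Cxcl9 ranged from -1.09 to 0.04, Cxcl16 from -0.49 to 0.23 (0.004 without control naive replicate 3, 0.002 without Sox2Hi naive replicate 3), Ccl5 from -1.16 to 0.35 (0.28 without control treated replicate 2) and Cxcr3 from -0.53 to 0.35. The interaction of Cxcl9 was -0.18 with RLE factors and DESeq2, -0.09 with limma-voom, -0.19 with all genes with a count and -0.07 under the replicate block by title number (-0.74 to 0.46 with a library left out). That of Cxcl10 was 0.20 with expressed-gene factors, 0.41 with genes of at least 5 CPM only, 0.57 with library totals and 0.44 after background subtraction (-0.04 to 0.54 with a library left out and expressed-gene factors, among them 0.01, 0.08, 0.43, 0.45, 0.46 and 0.51). That of Ccl5 was 0.04 with library totals, and with a library left out and expressed-gene factors it ranged from -1.19 to 0.32 (among them 0.06, 0.22 and 0.24) and that of Cxcr3 from -0.76 to 0.12.

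Over all genes, 10078 were called for treatment in control tumours (6456 to 21640 under other settings, 6004 to 9848 with a library left out), 1070 in Sox2Hi tumours (899 to 3215; 82 to 2492), 554 for graft in naive tumours (23 to 4058; 3 to 2166), 4076 in treated tumours (2 to 10991; 66 to 5211) and 8149 for the interaction (1734 to 12501; 3969 to 9263). The replicate block by title number changed no call of a member, with 4, 4, 0, 0 and 1 called, and raised the count of all genes for graft in naive tumours from 554 to 2282. In the other comparisons same-numbered pairs correlated at -0.236 to 0.203, so they share only a number. The 2 libraries per treated group and the 63 to 208 reads of Cxcr3 per library limit what could be resolved.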
